A study of Apeltes quadracus with 85 samples.

Results

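Across the dorsal midline of Apeltes quadracus, the fourspine stickleback, 14 windows of the genome were read at mean levels that fell step by step. The fall ran from the first dorsal spine (DS1) through DS2 and DS3 to the last dorsal spine (DSL). The genome was divided into fixed windows of 10000 bases, called bins. In each bin the reads counted at all listed variant sites were summed and divided by the total of the library, giving counted reads per 1000000 of the library (RPM), and the values were averaged over 11 fish for each tissue. A bin was taken as falling where its DS1 mean was at least 1 RPM, the means ran DS1 > DS2 > DS3 > DSL, the DS1 mean was at least 2 times the DSL mean, and none of the blank pterygiophore and fin means was above DS1. Of 28920 bins with a listed site, 16669 had a DS1 mean of at least 1 and 14 of these met the rule, which is 0.084%. The bins were thus chosen by their measured means in DS1, DS2, DS3 and DSL, so their fall is described here and not tested. The means of the blank pterygiophore and the fins were used only in that they could not be above DS1.

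The fish were F1 fry from Louisbourg Apeltes clutches raised in the laboratory at 16 °C in 10% seawater and dissected at 11 to 13 mm, at stage 31, when a fin fold is still present. Every fish carried a different haplotype of the HOXDB interval on each copy of the chromosome. H is associated with a high and L with a low spine number, LHR is a recombinant of low and high sequence, and the H/L genotype was carried by 4 fish, H/LHR by 3 and L/LHR by 4. Besides the spines DS1, DS2, DS3, DS4 and DSL the tissues were a blank pterygiophore (Pter) and the fins of the back (DF) and of the anal side (AF), with 1 library per tissue and fish. DS4 was available in 8 fish, all but L/LHR replicates 2, 3 and 4. No fish had the same haplotype on both copies, and the fish were the replicates, so all tissues of a fish share its genome.

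Stickleback dorsal spines are bony rods that stand on pterygiophores, the supports set along the midline, and a blank pterygiophore carries no spine. The spines form one after another along the trunk, and position along that axis is recorded in such embryos by regional programs of gene expression, Hox genes among them. Dorsal and anal fins share pterygiophores as supports but carry soft rays. The files name no genes, so a bin below is a stretch of sequence and not a gene, and the labelled tissues were not checked against marker genes. Because 1 read adds a count at every listed site along it, levels of different bins are not comparable as transcript amounts. Numbers of reads given below are such counts and can exceed the number of separate reads. In dissected tissue a lower level from fewer cells of a kind and one from less RNA per cell cannot be told apart.

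The 14 bins lay on 10 chromosomes of the authors' Apeltes assembly and are named here by chromosome, with a letter where a chromosome held more than 1. Bin 1 was chromosome 1, bases 1900001 to 1910000. Bin 4 was chromosome 4, 8120001 to 8130000. Bins 7a and 7b were chromosome 7, 1620001 to 1630000 and 25930001 to 25940000. Bin 8 was chromosome 8, 6580001 to 6590000, and bin 9 was chromosome 9, 8190001 to 8200000. Bins 11a, 11b and 11c were chromosome 11, 1380001 to 1390000, 1410001 to 1420000 and 1430001 to 1440000. Bins 16a and 16b were chromosome 16, 16460001 to 16470000 and 16720001 to 16730000. Bins 17, 18 and 19 were chromosome 17, 16530001 to 16540000, chromosome 18, 1060001 to 1070000, and chromosome 19, 16190001 to 16200000. Chromosome 6, which holds HOXDB, had 642 bins with a DS1 mean of at least 1 and none of the 14. The bins held 4 to 57 listed sites each and 1188 to 45367 counted reads over the 85 libraries.

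Libraries held 2.15 to 46.6 M (1 M being 1000000) allele-counted reads, with a median of 35.2 M. The 6 libraries under 10 M were DS1 of H/L replicates 1 and 3, DSL of H/L replicates 3 and 4, DS3 of L/LHR replicate 2 and DS4 of H/L replicate 3. Clustering by shared genotype calls at 26867 sites was set to give 2 groups, and it split the fish into 8 and 3. The group of 3 held L/LHR replicate 1 together with replicates 1 and 2 of H/LHR. Pairs of fish shared 49.3% to 59.9% of the calls within groups and 37.2% to 49.1% between them, so no clear gap parted the groups. Each library was also compared with the other tissues of its fish at sites where those read as 1 allele. The share of reads with the other allele had a median of 0.0455% over the 85 libraries, and it was 0.138% in DSL of L/LHR replicate 2 and 0.136% in DS2 of H/LHR replicate 3. These 2 libraries stood apart from the other 83, whose highest share was 0.0603%, and values without them are given below.

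**Figure D1:**
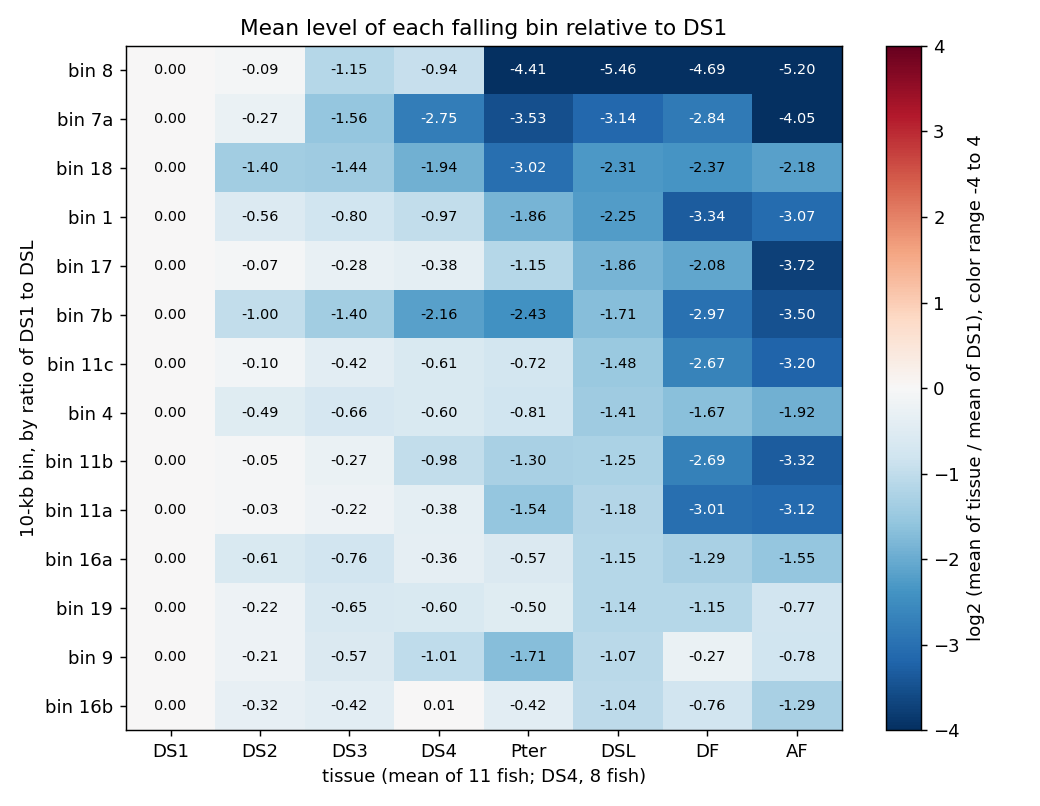
Mean of each tissue relative to DS1, as log2 of the ratio of means, for the 14 falling bins (rows, ordered by the ratio of DS1 to DSL) in 8 tissues (columns); each mean is over 11 fish, or 8 fish for DS4. Bin 8 reached -5.46 in DSL and bin 16b stood at -1.04, and the DS4 mean of bin 16b lay at its DS1 level, with 1 DS4 library at 64.0 RPM and a median of 7.86.

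The ratio of the DS1 to the DSL mean ran from 2.05 in bin 16b to 44.1 in bin 8, with a median of 2.72. Over the 16669 bins with a DS1 mean of at least 1 the median ratio was 0.954, and 65 bins had a ratio of at least 2. The 3 falling bins nearest the threshold were 16b at 2.05, 9 at 2.10 and 19 at 2.20. The nearest bins outside, which met every other condition, had ratios of 1.94, 1.93 and 1.93. The first pair of these lay on chromosome 16, near 16b and next to 16a, and the third was on chromosome 20, bases 16650001 to 16660000. There was thus no gap between the bins inside and those outside. The drop between successive means was largest on the log2 scale between DS3 and DSL in 11 of the 14 bins and between DS1 and DS2 in 3, namely 7b, 16a and 18.

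The spread between fish was wide in these bins. The coefficient of variation of the 11 DS1 values had a median of 0.864 over the 14 bins, against 0.296 over all bins with a DS1 mean of at least 1. In all 14 bins the DS1 and DSL libraries overlapped, as they did in every other bin, with 0.0% of 16669 bins free of overlap. In the same fish, DS1 was above DSL in 11 of 11 fish in 4 bins, 4, 7a, 11a and 11b, where 0.108% of all bins had this pattern, and in 6 to 10 fish in the other 10. The rule used the means of these same libraries, so nothing is read from this count. The full order DS1 > DS2 > DS3 > DSL held within a single fish in at most 7 of 11 fish, in bin 4, and in no fish in bins 7b, 8, 9, 17 and 18. Bins 7a, 4, 11a, 11b and 11c are described first and the other 9 after them.

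Bin 7a had the steepest fall of these 5. Its 11 DS1 libraries ran from 2.02 to 7.81 RPM with a median of 4.19, and DS2 ran from 2.49 to 6.88 with a median of 3.43. DS3 was lower, from 0.702 to 2.6 with a median of 1.65. DSL ran from 0.0328 to 2.72 with a median of 0.269, so that a single DSL library, H/L replicate 3 at 2.72, reached into the DS1 range. Means were 4.77 ± 1.80 (SD, n = 11) in DS1 and 0.540 ± 0.778 (SD, n = 11) in DSL, a ratio of 8.83, and the ratio of medians was 15.6. DS4, which the rule did not use, stood at 0.709 ± 0.465 (SD, n = 8), below DS3 in the same fish (1.68) and above DSL (0.527). Its reads came from 7 sites, of which 5 made up 90%. At all 6 sites with at least 50 reads DS1 was above DSL, by 3.73 to 16.0 times. Sites of a bin make up the means that the rule used, and near ones can share reads. Nothing is read from their agreement, here or in the bins below. The ratio stayed between 7.69 and 15.0 when each fish was left out in turn, and the bin met the rule each time.

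Bin 4 fell in the same way from a higher DSL level. DS1 ran from 3.00 to 10.2 RPM (median 4.74) and DSL from 0.807 to 3.46 (median 2.00), and in each of the 11 fish DS1 was above DS2 and DS3 above DSL. The means were 5.13 ± 2.25 (SD, n = 11), 3.64 ± 1.33 (SD, n = 11), 3.24 ± 1.41 (SD, n = 11) and 1.93 ± 0.939 (SD, n = 11) from DS1 to DSL. The highest DS1 value, 10.2, was that of H/L replicate 1, the shallowest library at 2.15 M reads. Without that fish the ratio was 2.35, against 2.66 with it. All 12 sites with at least 50 reads, which make up the means used by the rule, had DS1 above DSL, by 2.05 to 6.48 times.

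Bins 11a, 11b and 11c stood within 60 kb of each other on chromosome 11. In bin 11a DS1 ran from 1.40 to 3.69 RPM (median 3.09) and DSL from 0.527 to 2.07 (median 1.35). In bin 11b DS1 ran from 0.930 to 2.78 (median 1.87) and DSL from 0.440 to 1.21 (median 0.8). In bin 11c DS1 ran from 0.322 to 2.79 (median 1.11) and DSL from 0.208 to 0.653 (median 0.404). In each of the 3 bins the DS1 and DSL ranges overlapped, and the DS1 and DS2 means lay close together while the fins lay far below them. In 11a the DS1, DS2 and DS3 means were 2.89, 2.82 and 2.49, whereas DF and AF were 0.359 and 0.332, so that DS1 was 8.05 times DF and 8.72 times AF. In 11b DS1 was 6.46 times DF and 9.96 times AF, and in 11c it was 6.38 and 9.20 times.

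**Figure D2:**
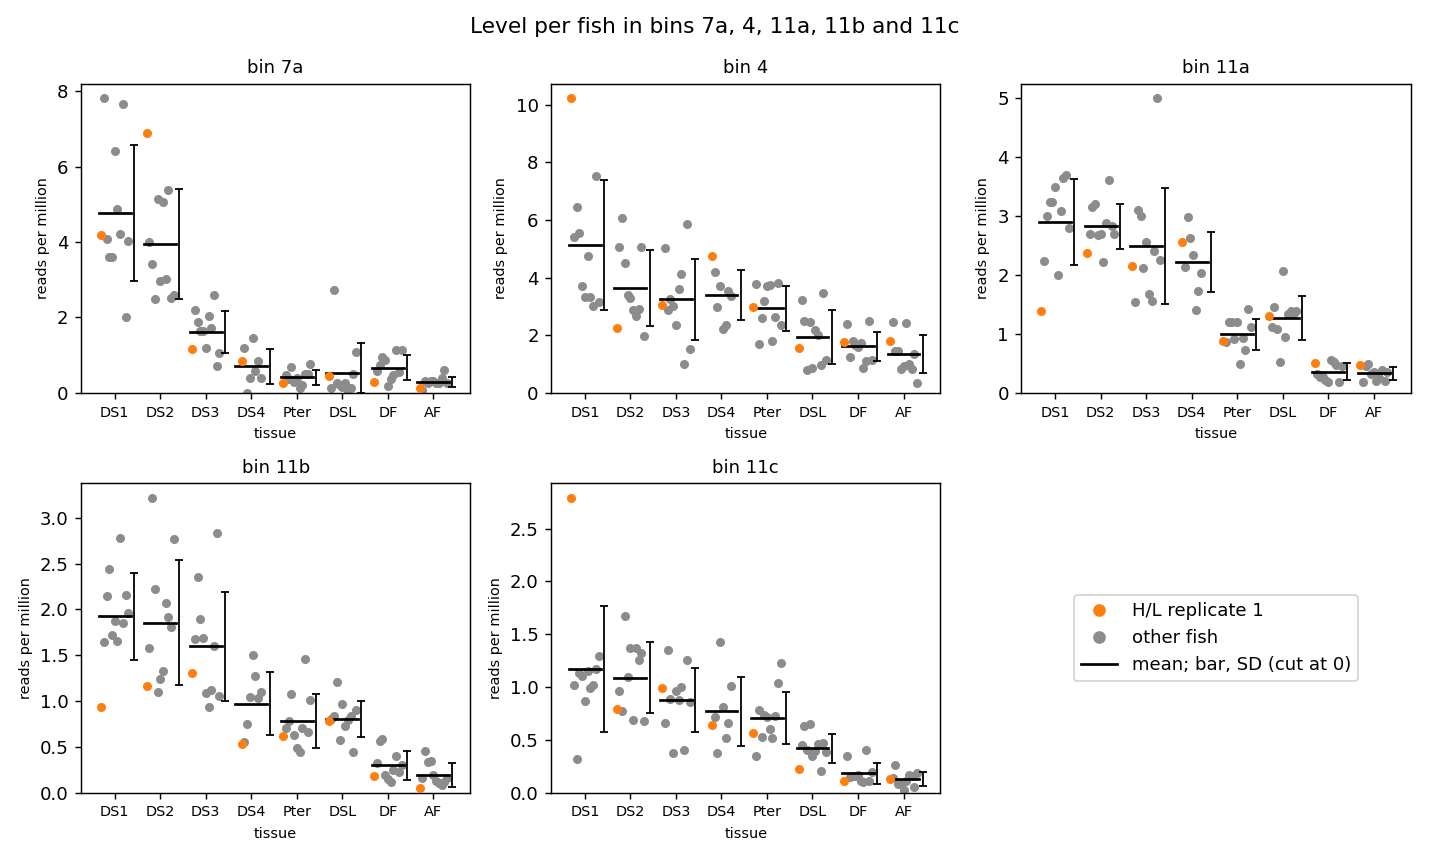
RPM (vertical axes) in 8 tissues (horizontal axes) for bins 7a, 4, 11a, 11b and 11c; each point is 1 fish, lines are means and bars SDs, and H/L replicate 1, whose DS1 library was the shallowest, is orange. DS1 was above DSL in 11 of 11 fish in bins 7a, 4, 11a and 11b and in 10 of 11 in bin 11c.

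The shallow DS1 library of H/L replicate 1 was the lowest of 11 in bins 11a and 11b and the highest in 11c. In bin 11b 2 of the 4 sites, bases 1419290 and 1419293, held 1331 and 1278 of the 2736 reads, and 1 read can be counted at both. Bin 11c stood on fewer reads than 11a and 11b, 1735 in all, of which 82.4% fell on 1 site. It left the rule without H/L replicate 1, with a ratio of 2.29 and DS1 at 1.01 below DS2 at 1.12, and without the libraries under 10 M reads, with 1.084 in DS1 and 1.089 in DS2. Bin 11a left it without H/LHR replicate 2 or L/LHR replicate 3, where DS1 (2.833 and 2.813) lay just below DS2 (2.836 and 2.823). The bins on chromosome 11 were part of a longer run. Between 1380001 and 1510000 all 13 bins had a DS1 mean above the DSL mean, by 1.53 to 3.87 times. DF and AF means were both below DSL in each of them except the bin from 1400001 to 1410000, which had a DS1 mean of 0.0426 and a DF mean (0.0134) just above DSL (0.0110). The bin from 1440001 to 1450000, the most read of the run, had means of 22.1, 21.6 and 19.5 in DS1, DS2 and DS3 and 11.9 in DSL, a ratio of 1.86. The bin from 1470001 to 1480000 had a ratio of 2.55 but a DS2 mean (1.45) above its DS1 mean (1.33). The bin from 1510001 to 1520000 still had DS1 (0.7911) above DSL (0.4615), with DF at 0.248 and AF at 0.2223. In the bin from 1520001 to 1530000 the pattern was no longer seen, with 0.696 in DS1, 0.743 in DSL and 0.769 in AF.

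**Figure D3:**
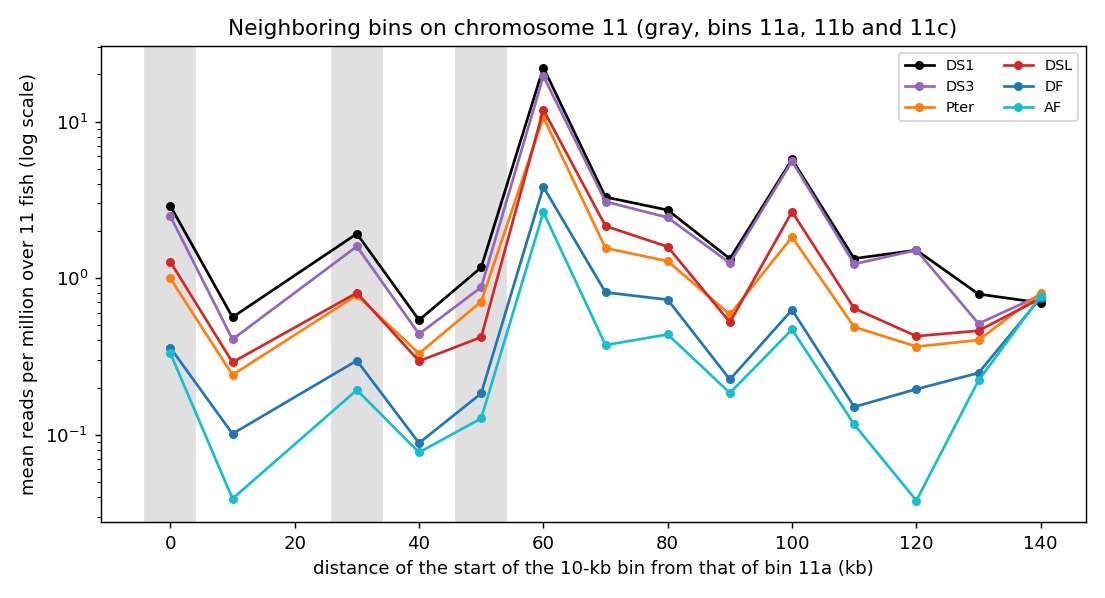
Mean RPM over 11 fish (vertical axis, log scale) in DS1, DS3, Pter, DSL, DF and AF, against the distance of each bin from bin 11a in kb (horizontal axis); bins with a DS1 mean under 0.5 are left out and gray bands mark bins 11a, 11b and 11c. DS1 lay above DSL, and DSL above both fins, in every bin drawn except the last, where DS1 was 0.696 and DSL 0.743.

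Of the other 9 bins, bin 8 had the highest ratio and the fewest reads. DS1 ran from 0 to 4.92 RPM (median 0.886) and DSL from 0 to 0.122 (median 0), with 438 reads in the DS1 libraries and 10 in the DSL libraries, 7 of which had none. DS1 was above DSL in 8 of 11 fish, and 2 fish had no read in DS1. DS2 ran from 0 to 4.40 and DS3 from 0 to 1.94, and the SD among fish was above the mean in each of DS1, DS2 and DS3. DS4 was 0.564 ± 0.514 (SD, n = 8), while Pter, DF and AF had means of 0.0510, 0.0419 and 0.0294. All 6 sites, which make up the means used by the rule, had DS1 above DSL, by 20.0 to 161.5 times. The largest of these rested on a DSL mean of 0.0022 RPM at base 6580374, and the sites from 6585852 to 6585894 can share reads. The ratio of 44.1 ran from 25.9 to 80.5 when each fish was left out in turn. The bin left the rule without H/LHR replicate 2, with 0.696 in DS1 and 0.991 in DS2, and without L/LHR replicate 4, with 1.09 and 1.11. The next bin, 6590001 to 6600000, had 0.414 in DS1 and 0.0285 in DSL, a ratio of 14.5, but its DS2 mean (0.442) was above DS1.

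Bins 1, 18, 7b and 9 shared their high libraries. In bin 1 DS1 ran from 1.82 to 147.3 RPM (median 14.7) and DSL from 5.14 to 10.6 (median 8.38), so 5 of 11 fish did not have DS1 above DSL. The 3 highest DS1 values were 147.3 in L/LHR replicate 1, 96.7 in H/LHR replicate 1 and 71.7 in H/L replicate 3. In DS2 the highest was 114 in H/LHR replicate 3 and in DS3 63.2 in H/LHR replicate 1. The DSL, Pter and fin libraries were even by comparison, with a highest value of 16.0. The ratio of means was 4.75 and that of medians 1.76. The medians did not fall from DS1 to DS3, at 14.72 in DS1, 14.77 in DS2 and 16.42 in DS3.

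In bin 18 the DS1 median was 0.970 and the highest value 21.7, in L/LHR replicate 1, which made up 52.9% of the sum of the 11 DS1 values, and DSL ran from 0.295 to 1.67. In bin 7b the DS1 median was 0.930 and the highest 7.03, in the same library, and DSL ran from 0 to 1.88. In bin 9 DS1 ran from 0 to 7.0 (median 1.48), again highest in L/LHR replicate 1, and DSL from 0 to 1.97 (median 0.823). Without L/LHR replicate 1 the ratio of DS1 to DSL went from 4.94 to 2.42 in bin 18, from 3.27 to 1.95 in bin 7b and from 2.10 to 1.48 in bin 9, and none of the 3 then met the rule. Bin 1 still met it, with a ratio of 3.52 and means of 28.5 in DS1 and 28.0 in DS2. Bin 9 had the dorsal fin nearest to DS1 of the 14 bins, with DF at 1.44 and AF at 1.01 against 1.74 in DS1. The sites of bin 18 did not all fall. DS1 was above DSL at 26 of its 30 sites with at least 50 reads, and the site ratios ran from 0.293 to 59.4. Its most read site, base 1063853 with 467 reads, had a mean of 0.113 RPM in DS1 and 0.311 in DSL.

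**Figure D4:**
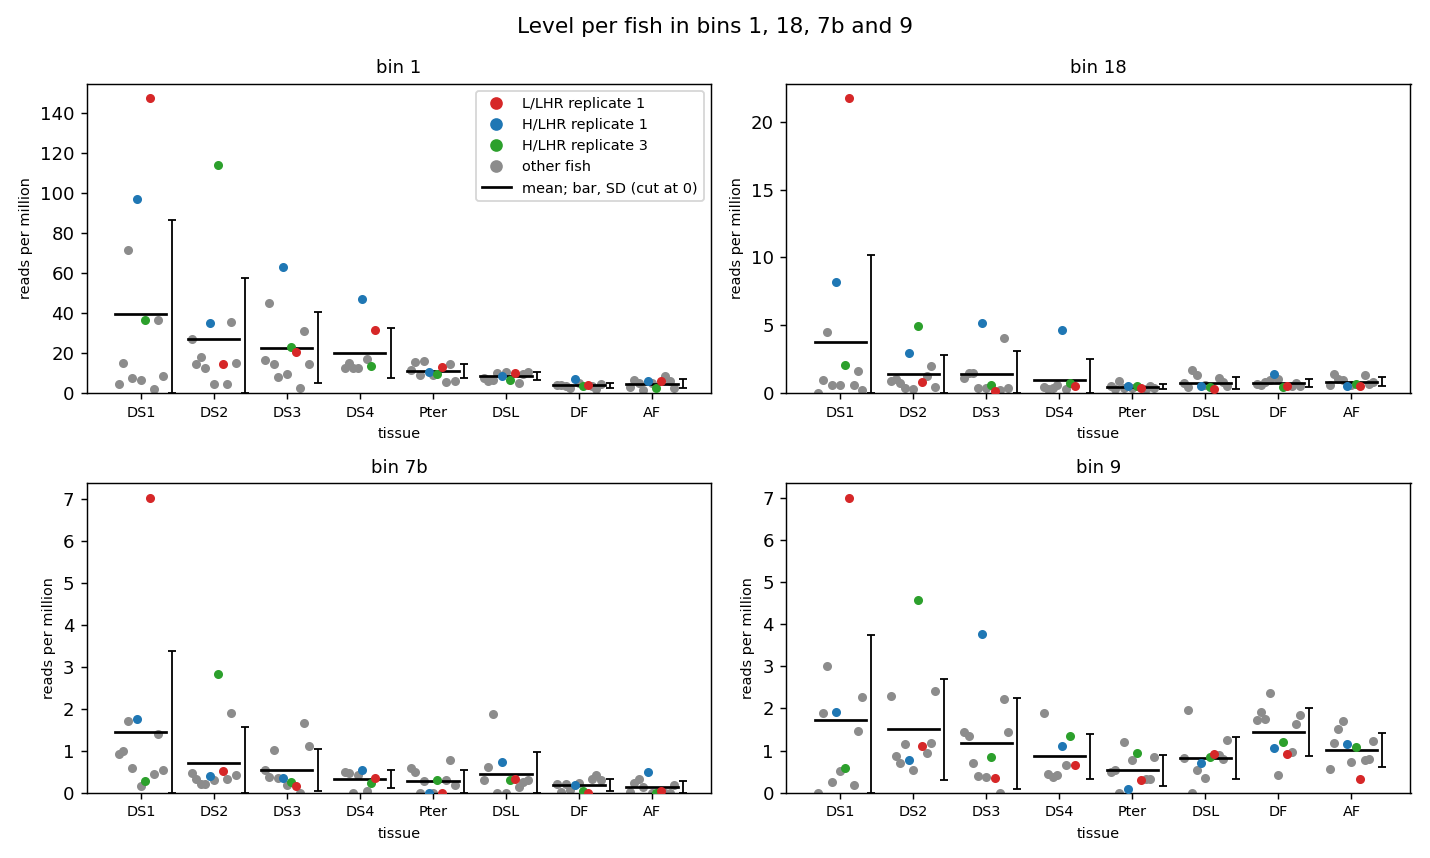
RPM (vertical axes) in 8 tissues (horizontal axes) for bins 1, 18, 7b and 9; each point is 1 fish, lines are means and bars SDs, with L/LHR replicate 1 red, H/LHR replicate 1 blue and H/LHR replicate 3 green. The red DS1 point was the highest of each panel, from 7.0 RPM in bin 9 to 147.3 in bin 1.

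After subtraction of the tissue mean, the log2 levels of these 4 bins were correlated over the 85 libraries with r from 0.401 to 0.712. The points are tissues of 11 fish and share library depth, so the correlation is a description. The bin most like bins 1 and 18 outside the 14 was an unplaced stretch, bases 25990001 to 26000000 of the concatenated unplaced sequence, with r of 0.613 to each. Its DS1 mean was 7.65 and its DSL mean 0.919, with the highest DS1 value, 31.0, again in L/LHR replicate 1, and it missed the rule because DS3 (2.56) was above DS2 (2.34).

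The alleles read in bin 1 differed between tissues of the same fish. The sites that held 90% of the reads of bin 1 lay within 1117 bases, so 1 read can be counted at several of them. Read totals in this paragraph are counts summed over sites and can be far larger than the numbers of separate reads. In H/LHR replicate 3, 36 of the 57 sites of bin 1 were called heterozygous in at least 1 tissue. At these sites the second allele made up 76.2% of 2838 reads in DS2, but 0.575% of 696 reads in DS1, 1.12% of 535 in DS3, 1.02% of 295 in DS4 and 1.95% of 154 in DSL. Pter of this fish had it in 25.9% of 228 reads, DF in 3.85% of 104 and AF in 2.82% of 71. The same DS2 library had the second allele in 78.6% of 70 reads at 6 sites of bin 18, where DS1 had it in 0.0% of 11. In H/L replicate 1 the second allele of bin 1 made up 71.1% of 228 reads in Pter and 25.8% of 93 in DSL against 8.31% of 361 in DS2. In L/LHR replicate 1 the DS1 library, the highest of all, had it in 0.0% of 1306 reads at 10 such sites. The tissues of 1 fish, which share a genome, thus read differently at the same sites. Whether reads of another fish took part in these shares, or in the level of bin 1 in that DS2 library, was not tested.

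Leaving out the 2 libraries with the raised share of a second allele, DS2 of H/LHR replicate 3 and DSL of L/LHR replicate 2, an alternative chosen after seeing the data, took bins 1, 18 and 7b out of the rule, since their DS2 means (18.02, 1.06 and 0.507) then lay below DS3 (22.6, 1.38 and 0.545). The other 11 bins still met the rule, and 25 bins met it in all. The ratios of these 11 were then between 2.11 and 40.1. In bin 16a the ratio went from 2.23 to 3.08, since the highest DSL library of that bin, 32.8 in L/LHR replicate 2, was one of those left out.

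Bins 16a and 16b rose and fell together. In 16a DS1 ran from 3.64 to 75.4 RPM (median 11.5) and DSL from 2.31 to 32.8 (median 7.53). In 16b DS1 ran from 5.47 to 41.9 (median 8.96) and DSL from 2.65 to 23.1 (median 4.96). DS1 was above DSL in 9 of 11 fish in each. Over the 85 libraries their log2 levels, less the tissue means, had r = 0.939. For each of them 24 bins had r of at least 0.8, the other of the pair included. Of these 24, 22 were on chromosome 16 between 16380001 and 16740000. The order DS1 > DS2 > DS3 > DSL held in 16 of the 24. Of the 16669 bins with a DS1 mean of at least 1, 368 had this order. The 24 were picked for following a chosen bin over the same libraries, so nothing is read from their order.

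**Figure D5:**
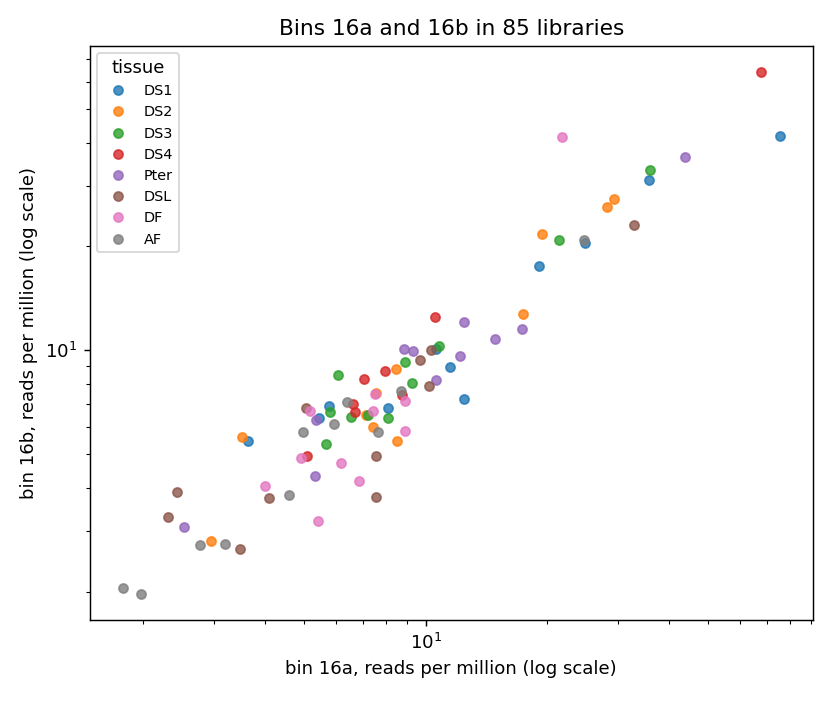
RPM in bin 16b (vertical axis, log scale) against bin 16a (horizontal axis, log scale) in the 85 libraries, colored by tissue. The bins rose together (r = 0.939), and high values came from several tissues, DS1 of H/L replicate 1 at 75.4 and 41.9, DS4 of H/L replicate 3 at 67.7 and 64.0 and Pter of H/LHR replicate 1 at 43.9 and 36.3.

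The high libraries of this pair came from different tissues, and the shallow ones were among them. DS1 of H/L replicate 1 (2.15 M reads) had 75.4 in 16a, DS4 of H/L replicate 3 (2.69 M) had 67.7 and DS3 of L/LHR replicate 2 (5.0 M) had 35.97, while Pter of H/LHR replicate 1 had 43.9. Without the 6 libraries under 10 M reads the ratio was 1.38 in 16a and 1.44 in 16b, under the threshold. The DS4 means of 15.0 and 14.9 in 16a and 16b were 1.64 and 1.62 times DS3 in the same fish, but they rested on DS4 of H/L replicate 3, and the DS4 medians were 7.49 and 7.86. Without that fish, an alternative chosen after seeing the data, DS4 was 0.817 times DS3 in 16a and 0.861 times in 16b, and its mean lay between DS3 and DSL in both.

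Bins 17 and 19 had low levels. In bin 17 DS1 ran from 0.304 to 3.57 RPM (median 0.704) and DSL from 0 to 1.04 (median 0.176), with DS1 above DSL in 9 of 11 fish, and its AF libraries were all at or under 0.160. Its DS1 mean of 1.03 lay just above the DS2 mean of 0.978, but the DS2 median was 0.848, above that of DS1. Without L/LHR replicate 1 the ratio went from 3.62 to 2.61, with DS1 at 0.770 below DS2 at 0.936, and the bin left the rule. It also left the rule without H/L replicate 4, where DS1 was 0.950, and without L/LHR replicate 4, where DS2 (1.036) was above DS1 (1.032). In bin 19 DS1 ran from 0.615 to 2.33 (median 1.09) and DSL from 0.135 to 0.989 (median 0.518), with DS1 above DSL in 10 of 11 fish. Without the libraries under 10 M reads the ratio of bin 19 was 1.71 and that of bin 17 was 3.52, and bin 19 also left the rule without H/L replicate 1, with a ratio of 1.92. Bin 19 was the only bin of the 14 in which DF was above AF in as few as 1 of 11 fish.

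DS4 offered a comparison that the rule did not use, in the 8 fish that had this spine. In these fish the DS4 mean lay between DS3 and DSL in 10 of the 14 bins, where 8.22% of all bins had this order. The choice of bins with DS3 above DSL makes such an order more frequent, so the count is given beside that share and not as a test. When each of the 8 fish was left out in turn the count ran from 7 to 10, with 7 without H/LHR replicate 1, against 5.81% to 9.72% of all bins. The ratio of DS4 to DS3 was lowest in bins 7a (0.421), 11b (0.645), 18 (0.738) and 9 (0.747) and highest in 16a (1.64), 16b (1.62), 11a (1.01) and 4 (0.992). The ratios of 16a and 16b turned on H/L replicate 3, without which they were 0.817 and 0.861. DS4 therefore resembled DS3 in bin 11a, at 2.23 against 2.21 RPM, and was nearer to DSL in bin 11b, at 0.972 against 0.837.

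The DS4 spine was compared with the blank pterygiophore in the same 8 fish by edgeR's quasi-likelihood test over all bins. The rule had required the Pter mean not to be above DS1 but had not used DS4. In bin 11a the 8 DS4 libraries ran from 1.41 to 2.98 RPM (median 2.24) and the Pter libraries from 0.494 to 1.21 (median 0.916), so the groups did not overlap, as in 0.144% of bins with a DS1 mean of at least 1. The DS4 level of bin 11a was higher by 1.20 ± 0.24 (SE) on the log2 scale, with an adjusted p of 0.0277 by edgeR and Benjamini-Hochberg. DS4 was above Pter in 8 of 8 fish, as in 1.13% of bins with a DS1 mean of at least 1. With a term for each fish (the replicate block) the difference was 1.25 ± 0.19 (SE) and the adjusted p 0.00816 by edgeR. When each fish was left out in turn the difference stayed between 1.16 and 1.36, but the adjusted p by edgeR rose to as much as 0.138, and the call was lost without H/L replicate 1, 2 or 4, H/LHR replicate 1 or L/LHR replicate 1.

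Bin 11a was the only one called of the 12 bins that passed the filter on low counts, which bins 8 and 7b did not pass, and 85 of the 19558 bins tested were called (0.435%), 83 of them with DS4 higher (0.424%). With the replicate block bin 11a was again the only one of the 12, and 240 bins were called (1.23%), 0.997% with DS4 higher. DESeq2 also called bin 11a alone, with 0.895% of all bins called and 0.859% with DS4 higher. At an unadjusted p under 0.05 stood 5 of the 12 by edgeR, 5 with the block and 6 by DESeq2, where 6.45%, 14.2% and 7.34% of all bins did. By DESeq2 these included bin 16a with DS4 lower, at a log2 difference of -0.91 and an unadjusted p of 0.0242. For this bin edgeR gave the other direction, a log2 difference of 0.13 with an unadjusted p of 0.849. DS4 means were above Pter means in 13 of the 14 bins, bin 19 being the exception, where 35.3% of all bins with a DS1 mean of at least 1 had this direction. Without H/L replicate 3 or H/LHR replicate 1 it was 12 of 14, against 43.1% and 30.0% of all bins, and without H/L replicate 3 the DS4 means of 16a and 16b (7.52 and 7.93) were below Pter (14.0 and 12.1). By fish, DS4 was above Pter in 3 of 8 in bin 16a, 4 of 8 in bins 7b, 11b, 16b and 18, and 5 to 8 of 8 in the others. The log2 difference was positive in all 12 tested bins by edgeR. By DESeq2 it was positive in 9 of the 12 and negative in bins 16a, 16b and 18. The rule chose bins high in the anterior spines with Pter not above DS1, which can make DS4 above Pter more frequent. This limit holds for bin 11a as well. The counts of direction and those at an unadjusted p under 0.05 are thus given beside their shares and not as a test of the 14 bins. Bins 7a, 1 and 17 had log2 differences of 1.14 ± 0.35 (SE), 0.87 ± 0.28 (SE) and 1.12 ± 0.37 (SE), with adjusted p from 0.303 to 0.404 by edgeR.

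Pter and DSL had no constant order. The Pter mean was above the DSL mean in 8 of the 14 bins, where 24.2% of all bins had this order, and among bins 7a, 4, 11a, 11b and 11c it was so in 4 and 11c. The rule chose bins with a low DSL, which makes this order more frequent, so nothing is read from the count. In bin 11c Pter was 0.708 and DSL 0.420, whereas in 11a they were 0.996 and 1.27. In bins 7a and 11b the Pter and DSL means were 0.414 and 0.540, and 0.779 and 0.806, differences smaller than the SD of either group.

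The fins were lower than the last spine in 8 of the 14 bins, in which both fin means were below DSL, where 17.7% of all bins had this pattern. DF was under 0.5 times DSL in 5 bins, the 3 on chromosome 11, bin 1 and bin 7b, against 0.96% of all bins. The rule used DSL, so these counts are descriptions. The DF mean was above the AF mean in 11 of the 14 bins, where 66.3% of all bins had this direction. DF and AF were compared by edgeR in the 11 fish. None of the 9 bins that passed the filter on low counts was called, 0 of 9 by edgeR and 0 of 9 by DESeq2. Bins 7b, 8, 11b, 11c and 17 did not pass it. Among them, bin 17 had a DF mean 3.13 times AF, at 0.243 and 0.0776 RPM, with DF above AF in 10 of 11 fish. Without the filter 0 of the 14 bins were called by edgeR. Of 21056 bins 48 were called by edgeR (0.228%, and 0.214% with DF higher) and 81 by DESeq2 (0.385%, and 0.356% with DF higher). At an unadjusted p under 0.05 stood 1 of the 9 by edgeR (4.39% of all bins) and 2 by DESeq2 (4.72%). The 1 by edgeR was bin 7a, in which DF ran from 0.191 to 1.15 RPM (median 0.575) and AF from 0.0676 to 0.606 (median 0.273). DF was above AF in 9 of 11 fish, by 1.18 ± 0.33 (SE) on the log2 scale, with an adjusted p of 0.299 by edgeR. With the replicate block the difference was 1.11 ± 0.27 (SE) and the adjusted p 0.0589, and 237 bins were called in all (1.13%, and 0.879% with DF higher), 0 of them among the 9, of which 3 were under an unadjusted p of 0.05 (13.4% of all bins). Besides 7a these were bin 9 with DF higher, by 0.46 (unadjusted p of 0.0193 by edgeR), and bin 19 with DF lower. In bin 19 the log2 difference was -0.43, with an unadjusted p of 0.0106 by edgeR with the block and 0.0472 by DESeq2.

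No difference between the haplotype pairs was detected. In DS1 the 3 genotypes were compared by edgeR, and 0 of the 14 bins were called, where 0.00464% of 21541 bins were called. By DESeq2 0 of the 14 were called (0.079% of all bins), and at an unadjusted p under 0.05 stood 0 by edgeR (3.07%) and 0 by DESeq2 (4.34%). The genotype means of bin 7a were 4.92 ± 1.95 (SD, n = 4) in H/L, 4.96 ± 1.40 (SD, n = 3) in H/LHR and 4.48 ± 2.34 (SD, n = 4) in L/LHR. In bin 4 they were 6.91 ± 2.26 (SD, n = 4), 3.92 ± 0.730 (SD, n = 3) and 4.25 ± 2.18 (SD, n = 4), and in bin 11a 2.47 ± 0.834 (SD, n = 4), 2.90 ± 0.796 (SD, n = 3) and 3.31 ± 0.433 (SD, n = 4). The lowest unadjusted p among the 14 by edgeR was that of bin 17, at 0.0886, in which L/LHR replicate 1 reached 3.57. By DESeq2 the lowest was that of bin 4, at 0.0533. The smaller group of similar fish held no H/L fish, so similarity of the fish and genotype overlapped in part. The DS1 libraries of this test also chose the bins by their mean. Such a choice can favor bins with a single very high fish, which widens the spread within a genotype and makes a call less likely. The DS1 coefficient of variation had a median of 0.864 in the 14 bins, against 0.296 over all bins. The 0 calls thus do not show that the genotypes were alike in DS1.

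The change from DS1 to DSL was then compared between genotypes as an interaction, again by edgeR. Of the 14 bins 0 were called by edgeR, 0 with the replicate block and 0 by DESeq2, as were 0.0% of 22347 bins. At an unadjusted p under 0.05 stood 0 of the 14 by edgeR (1.1% of all bins), 0 with the block (1.93%) and 0 by DESeq2 (1.36%). The lowest unadjusted p among the 14 by edgeR was 0.158, in bin 16b, where that by DESeq2 was 0.105. The DS1 and DSL libraries of this test chose the bins as well. For that reason, and with 3 or 4 fish per genotype, this result does not show that the genotypes were alike.

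Allele ratios could not be compared between DS1 and DSL in these bins. A site entered that test where it was called heterozygous in each fish of a genotype in at least 1 tissue, had over 12 reads per fish in DS1 and DSL together and an overall minor share over 5%. Of the 344 sites in the 14 bins 0 were heterozygous in every fish of any genotype, against 1.62% to 2.07% of all 513939 sites. A heterozygous call in at least 1 fish was made at 52 of the 344 (15.1%), against 12.5% of all sites, and 40 of the 52 were in bin 1. Bin 4 had the most even heterozygous fish, 7 of 11 with 1 to 3 sites each. There the second allele made up 22.8% to 51.2% of the reads over all tissues. With 2 to 22 reads per fish in DS1 or DSL a change between these tissues was not tested. The share went down in H/L replicate 1, from 81.8% of 11 reads in DS1 to 37.5% of 8 in DSL. It went up in H/LHR replicate 1, from 36.4% of 22 reads to 42.9% of 14. The 3 genotypes had 3662, 9293 and 7051 testable sites elsewhere in the genome, of which 0, 30 and 0 were called by edgeR (0.0%, 0.323% and 0.0%).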

How the data were processed

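Spines, a blank pterygiophore and fins of 11 Apeltes fry were profiled by stranded mRNA sequencing. Reads were trimmed by the authors with Cutadapt 2.4, then mapped with 2-pass STAR to their own Apeltes assembly, with variants called in GATK 4.1.4.1 and reads counted per allele at each variant with ASEReadCounter, as the study's methods state. These deposited tables of raw counts, 1 per library, were used here. The submitters' processing notes also list FastQC 0.11.9, Picard 2.23.4 and SAMtools 1.10.

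Counts were summed in bins of 10000 bases and divided by the library total to give counts per 1000000 (RPM), with Python 3.11.15, numpy 2.4.6 and pandas 2.3.3. Depth was 2.15 to 46.6 M (1 M being 1000000) allele-counted reads, which limits bins near 1 RPM. Tests used edgeR 4.0.16 (TMM, filterByExpr, quasi-likelihood F-test, Benjamini-Hochberg over all bins, FDR of 0.05) in R 4.3.3, with DESeq2 1.42.0 as an alternative. The tests of genotype in DS1, of DF against AF and of allele ratios in L/LHR fish were run on simulated data. Those of DS4 against Pter and of the change from DS1 to DSL were not. Figures used matplotlib 3.10.9. The members, lists and rules were chosen with earlier results of these data known. Named bins were those with the 8 largest ratios, the 6 highest DS1 means, the 4 largest and 4 smallest ratios of DS4 to DS3, the 3 nearest each side of the ratio threshold and those called in a test; the other bins named were chosen after their values were seen. Correlations used log2 of the level plus 0.1 RPM. A library was called heterozygous at a site with at least 10 reads, at least 2 minor reads and a minor share of at least 10%. Replicate numbers mark the same fish, so they pair the tissues: deviations from the tissue means correlated in the same fish with r of at least 0.141 for DS1 and DSL (11 fish), 0.452 for DF and AF (11 fish) and 0.255 for DS4 and Pter (8 fish). The study's methods state no term for the fish, and the fit without one was used, with the paired fit as the alternative.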

Additional observations from a re-analysis of the deposited data

Results flagged for a closer look

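Single libraries far from the rest of their group were looked for in groups of 4 H/L or L/LHR fish in DS1 and DSL and in the 8 DS4 libraries. Of 70 groups 15 had such a library, and these fell in 10 of the 14 bins. For independent groups of normally distributed values about 1 in 20, or 3.5, would be flagged. These bins were chosen by high DS1 means in the same libraries, and some of them rise together. The 3.5 is thus not an expectation for them, and nothing is read from the count.

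In DS1, L/LHR replicate 1 stood far above the other L/LHR fish in bins 18 (21.73 RPM), 17 (3.57) and 7b (7.027). L/LHR replicate 3 did so in bin 4 (7.512) and L/LHR replicate 2 in bin 16b (31.22). Among H/L fish the library far from the others in DS1 was replicate 2 in bin 7a (7.81), replicate 3 in bin 1 (71.7) and replicate 1 in bin 16a (75.36).

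In DSL, H/L replicate 3 was far above the others in bin 7a (2.717), replicate 2 in bin 17 (1.039), replicate 4 in bin 11b (1.211) and replicate 1 in bin 8, at 0.03739 against 0 in the other H/L fish. In DS4, H/L replicate 3, with 2.69 M reads, was far above the other 7 in bins 16a (67.71) and 16b (63.99), and H/LHR replicate 1 in bin 18 (4.674).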

How the results depend on the processing

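The number of falling bins was 14, and 4 with a DS1 mean of at least 5, 25 without the 2 libraries with most second-allele reads (chosen after seeing the data) and 13 to 25 without each fish in turn, with 22 without H/LHR replicate 1 or 2 and 25 without L/LHR replicate 2. Bins 7a, 4 and 11b met the rule without any 1 fish. With medians 16 bins met the rule, of which 6 were among the 14, and without libraries under 10 M reads 13 did, of which 8 were. With TMM-adjusted library sizes 20 did, of which 11 were among the 14, and bins 16a, 16b and 18 left the rule. Over only sites listed in every fish 10 did, all 10 among the 14, and bins 8, 18, 7b and 11c left it. Bins shifted by 5 kb gave 12 and bins of 20 kb gave 13. The ratio of DS1 to DSL of the 14 bins was under the threshold of 2 in 18 of 223 alternatives and above 1 in all of them. In bin 18 it was 1.09 over only sites listed in every fish. The ratio of medians in bin 8, with a DSL median of 0, is not among the 223. The bins were chosen by this ratio in the same libraries, so nothing is read from its staying above 1. For the genotype in DS1 1 bin was called, against 17 by DESeq2, 2 without TMM, 2 without the filter, 2 in the larger group of similar fish, 0 without shallow libraries and 0 to 3 without each fish. For the genotype by change from DS1 to DSL 0 were called, 0 to 0 without each fish, and 1 without shallow libraries with the replicate block (that setting, also used below, was chosen after seeing the data). DF against AF gave 48, and 81 by DESeq2, 237 with the replicate block, 237 with it and without shallow libraries, and 34 to 53 without each fish. DS4 against Pter gave 85, and 32 at an FDR of 0.01, 175 by DESeq2, 46 without TMM, 240 with the replicate block, 381 with it and without shallow libraries, and 33 to 114 without each fish (33 to 56 without H/L replicate 1 or 2, any H/LHR fish or L/LHR replicate 1). Bin 11a was lost at an FDR of 0.01, and its adjusted p by edgeR or DESeq2 ran from 0.000237 to 0.138. Allele ratios gave 0 sites in H/L, with 38 under the replicate block, 61 against AF, 353 by Fisher's exact test and 0 to 2 without each fish; 30 in H/LHR, with 103 under the block, 0 against AF, 272 by Fisher's exact test and 0 to 0 without each fish; and 0 in L/LHR, with 129 under the block and 272 by Fisher's exact test, none of these sites in the 14 bins. The paired fit changed no call among the 14 bins. The cause of these shifts was not tested. Depth limits bins 8, 17, 11c, 7b and 19, which stood near 1 RPM.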

Other observations

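Some bins outside the 14 shared their pattern in part. The bin on chromosome 9 from 17370001 to 17380000 was the one most like bin 8 over the 85 libraries (r = 0.841), which share fish and depth. Its means were 16.3 in DS1, 20.2 in DS2, 11.5 in DS3, 13.7 in DS4 and 2.45 in DSL, with DS1 from 1.40 to 76.9 RPM (median 12.6) and DSL from 0.902 to 5.43 (median 1.67). It stood at a higher level than bin 8 and missed the rule because DS2 was above DS1. Its highest DS1 library was H/LHR replicate 2, as in bin 8.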
